A study of Mus musculus with 22 samples.

Results

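The 10 genes described here are circadian clock genes, taken by symbol from a table of 47729 gene lines: Arntl, Clock, Npas2, Per1, Per2, Per3, Cry1, Nr1d1, Nr1d2 and Dbp. Their transcripts were counted in poly(A) RNA sequencing libraries of male C57BL/6 mouse liver. The animals were wild type (WT) or Slc10a1-/- (KO), and the labels name no other genetic change. Slc10a1 encodes NTCP, the carrier through which hepatocytes take up conjugated bile acids from the blood. There were 3 WT and 3 KO livers at 4 weeks of age, 4 WT and 6 KO at 8 weeks, and 3 WT and 3 KO at 20 months, 22 libraries in all. The labels give no time of day, light cycle or feeding state for any liver, and do not say which part of Slc10a1 was removed.

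The clock of liver cells is a loop of transcription factors that feed back on their own genes. BMAL1 (encoded by Arntl) pairs with CLOCK or with NPAS2, binds E-box sequences and switches on the Per, Cry, Nr1d1, Nr1d2 and Dbp genes. PER and CRY proteins then block the activator pair, while the REV-ERB receptors (Nr1d1, Nr1d2) compete with ROR receptors at RORE sequences and silence Arntl, Npas2 and, in part, Clock and Cry1. DBP drives D-box genes such as Per3. In mouse liver, Arntl and Npas2 transcripts therefore peak at the opposite side of the day from Nr1d1, Dbp and Per3, with Per2 and Cry1 following later.

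Gene counts per library totalled between 5496425 and 6956124 for the 4-week livers. The totals of the 8-week livers lay between 18950112 and 26066897, and those of the 20-month livers between 18032355 and 26789350. Levels are given as CPM (counts scaled to a common library size) with TMM scaling over the 22 libraries. A count of 0 allows up to 3 counts, or 0.431 to 0.546 CPM at 4 weeks and 0.112 to 0.166 CPM at the later ages, for counting error alone. Slc10a1 was lower in all KO libraries than in all WT libraries of the same age (154.5 CPM in the lowest WT liver at 20 months against 103.0 in the highest KO liver). Each of the 10 hepatocyte markers had counts, and their sum was 61390 to 198900 CPM. The summed level of 8 acute-phase genes was 126300 CPM in WT library 1 and 65930 in WT library 2 at 20 months, and 2726 to 9541 in the other 20 libraries. Neutrophil markers followed in the same pair (2532 and 273.8 CPM, against at most 21.1). The 5 muscle markers summed to 106.5 CPM in KO library 6 at 8 weeks and to at most 0.427 elsewhere. Per the file names, reads were paired-end at 4 weeks and single-end at 8 weeks and 20 months. Age and library layout therefore cannot be told apart where 4-week livers are compared with later ones.

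Promoter sequence was looked up because the loop runs through a few short motifs. RefSeq windows of 300 bases (250 before to 50 after a start, GRCm38.p6) were found for 9 of the 10 genes, 13 windows in all. They were searched on both strands for the E-box CACGTG, the E-prime box CACGTT, the D-box TTATGTAA or TTACGTAA, the RORE core TAGGTCA or TGGGTCA, and the cAMP response element TGACGTCA. The E-box and E-prime box share their first 5 letters and were counted separately. Among 32851 windows of the same length, 7.15% held the E-box, 4.68% the E-prime box, 1.06% the D-box, 6.45% the RORE core and 1.79% the cAMP response element. The stretches of the 5 genes with a match are shown, 5′ to 3′ on the gene's strand, with the matching letters in capitals. For Arntl only the bases around the match are given, and for the others the 250 bases before the start.
Arntl: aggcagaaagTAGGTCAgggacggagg
Per1: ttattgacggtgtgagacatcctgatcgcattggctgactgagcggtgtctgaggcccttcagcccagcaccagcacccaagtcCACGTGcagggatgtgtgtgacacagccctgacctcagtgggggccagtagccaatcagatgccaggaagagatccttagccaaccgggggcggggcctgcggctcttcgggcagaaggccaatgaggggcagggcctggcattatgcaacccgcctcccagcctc
Per3: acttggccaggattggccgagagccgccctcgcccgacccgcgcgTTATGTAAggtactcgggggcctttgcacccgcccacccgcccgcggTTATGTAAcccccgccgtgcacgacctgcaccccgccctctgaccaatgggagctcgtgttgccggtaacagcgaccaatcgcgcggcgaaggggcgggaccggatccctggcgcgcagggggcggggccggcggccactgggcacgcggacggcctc
Cry1: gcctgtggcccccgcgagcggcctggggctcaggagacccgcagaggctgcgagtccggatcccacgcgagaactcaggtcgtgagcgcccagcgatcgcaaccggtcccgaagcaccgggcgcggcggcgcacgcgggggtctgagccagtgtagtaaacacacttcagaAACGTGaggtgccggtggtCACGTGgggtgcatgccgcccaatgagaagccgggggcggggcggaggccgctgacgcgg
Nr1d1: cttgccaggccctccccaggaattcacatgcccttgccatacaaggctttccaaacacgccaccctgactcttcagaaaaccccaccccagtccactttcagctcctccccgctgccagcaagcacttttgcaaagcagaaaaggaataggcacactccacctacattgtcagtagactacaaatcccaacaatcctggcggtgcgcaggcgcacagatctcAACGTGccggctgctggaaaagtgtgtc
The Arntl stretch lies at chr7:113207531-113207557 (plus strand), with its RORE core beginning 31 bases after the start of 1 of its 2 windows. The other Arntl window held no match. In Per1 (chr11:69098699-69098948, plus strand) the E-box begins 166 bases before the start of 1 of its 2 windows. The other Per1 window held no match. Per3 (chr4:151044666-151044915, minus strand) has D-boxes at 205 and 158 bases before the start. Cry1 (chr10:85185055-85185304, minus strand) has an E-prime box at 79 and an E-box at 60 bases before the start. Nr1d1 (chr11:98775378-98775627, minus strand) has an E-prime box 28 bases before the start. The windows of Clock, Npas2, Nr1d2 and Dbp held none of these letters, which concerns these windows only.

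Arntl, the gene of the activator BMAL1 (chromosome 7, 113207465 to 113314126 in GRCm38), had 40.0, 5.09 and 3.02 CPM in WT libraries 1 to 3 at 4 weeks. The 4-week KO libraries had 45.9, 1.61 and 10.9 CPM. At 8 weeks the 4 WT livers were close together at 1.47, 1.39, 1.49 and 2.58 CPM, while the 6 KO livers ran from 1.80 over a median of 4.29 to 44.9 CPM. The high KO values came from libraries 1 and 2, at 44.9 and 43.7 CPM, and the next KO liver had 4.77. At 20 months Arntl was 5.00, 1.86 and 1.5 CPM in WT and 7.55, 1.12 and 1.66 CPM in KO livers. In each age the KO and WT ranges overlapped, and library 1 was the highest of its group in 5 of the 6 groups. In whole liver, a lower level can come from fewer cells of a type or from less RNA per cell, which cannot be told apart.

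Npas2, the partner that can stand in for CLOCK, was the least abundant gene of the set, with 0 to 118 counts per library. It was listed with 11, 0 and 1 counts in WT and 0, 0 and 0 in KO livers at 4 weeks. Its 8-week WT livers had 0.0685, 0.0496, 0.149 and 0.0792 CPM, and the KO livers ran from 0.171 over 0.221 to 4.99 CPM. The highest value belonged to KO library 2, which was also among the livers with high Arntl. At 20 months it was 0.902, 0.465 and 0.111 CPM in WT and 3.38, 0.402 and 0.340 CPM in KO livers, so that library 1 was highest in both groups, as for Arntl.

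Clock, the partner of BMAL1 and a histone acetyltransferase (chromosome 5, 76209868 to 76304792), varied least among the 10 genes. It had 82.5, 37.9 and 32.2 CPM in WT and 48.0, 42.0 and 56.4 CPM in KO livers at 4 weeks. At 8 weeks the WT livers had 57.7, 59.97, 54.2 and 67.45 CPM, and the KO livers ran from 67.52 over 81.4 to 103.5 CPM, so the groups just failed to overlap. The 20-month livers were lower, at 35.5, 26.6 and 28.2 CPM in WT and 37.3, 26.5 and 28.9 CPM in KO.

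Dbp, the output factor that binds D-boxes (chromosome 7, 45705088 to 45710203), showed the widest range. WT libraries 1 to 3 at 4 weeks had 0.559 (3 counts), 24.2 and 46.6 CPM, and the KO libraries 9.74, 16.7 and 2.14 CPM. At 8 weeks the WT values were 49.6, 48.1, 64.9 and 38.8 CPM, and the KO livers ran from 1.14 over 29.4 to 68.1 CPM. The low KO livers were libraries 1 (4.31 CPM) and 2 (1.14 CPM), the same livers in which Arntl was high. At 20 months Dbp was 9.02, 51.0 and 64.3 CPM in WT and 11.1, 78.9 and 72.2 CPM in KO, with library 1 lowest in both groups. Exons of Dbp overlap those of Sphk2 on the other strand, and since the strand setting of the counting is not given in the sources used here, reads of the pair cannot be told apart. Sphk2 stood at 12.7 to 95.1 CPM over the 22 libraries.

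Nr1d1, encoding REV-ERB alpha (chromosome 11, 98767932 to 98775333), had 4.84, 10.4 and 23.1 CPM in WT and 22.3, 6.64 and 3.63 CPM in KO livers at 4 weeks. The 8-week WT values were 22.8, 20.1, 25.1 and 15.5 CPM. The KO livers of that age ran from 7.91 over 18.6 to 86.5 CPM, with the highest value in library 4. At 20 months it was 20.4, 44.3 and 43.6 CPM in WT and 120.9, 49.7 and 84.16 CPM in KO livers, without overlap. Exons of Nr1d1 overlap those of Thra on the other strand, which stood at 7.16 to 19.9 CPM, the highest in KO library 1 at 20 months. That library also had the highest Nr1d1 of all 22.

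Nr1d2, encoding REV-ERB beta, had 33.5, 136.2 and 138.3 CPM in WT and 183.4, 102.2 and 111.9 CPM in KO livers at 4 weeks. At 8 weeks it was 146.6, 163.1, 178.0 and 168.5 CPM in WT and ran from 55.7 over 140.5 to 172.6 CPM in KO livers. The 20-month values were 91.0, 93.7 and 127.4 CPM in WT and 70.7, 134.6 and 103.6 CPM in KO livers. Its lowest 2 values were those of WT library 1 at 4 weeks and KO library 2 at 8 weeks.

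Per3, a PER family member with D-boxes in its promoter window as printed above, had 3.17, 24.1 and 23.9 CPM in WT and 25.2, 23.9 and 20.7 CPM in KO livers at 4 weeks. At 8 weeks the WT livers had 48.5, 66.9, 67.5 and 56.7 CPM. The KO livers ran from 4.36 over 49.7 to 63.1 CPM, with libraries 1 (4.36 CPM) and 2 (10.4 CPM) far under the other 4. At 20 months Per3 was 16.0, 30.2 and 27.2 CPM in WT and 11.9, 32.6 and 27.03 CPM in KO livers, again lowest in library 1 of both groups.

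Per2, a repressor of BMAL1 and CLOCK (chromosome 1, 91415982 to 91459324), had 20.3, 42.5 and 36.8 CPM in WT and 40.3, 36.0 and 31.8 CPM in KO livers at 4 weeks. Its 8-week WT livers had 39.1, 40.8, 45.3 and 39.7 CPM, and the KO livers ran from 9.83 over 29.8 to 39.5 CPM. At 20 months it was 13.9, 24.8 and 30.4 CPM in WT and 12.8, 43.5 and 30.6 CPM in KO livers. The low livers were thus the ones low in Per3.

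Per1, the PER gene that also responds to glucocorticoid and cAMP signals, had 41.1, 61.6 and 62.4 CPM in WT and 82.8, 56.3 and 58.3 CPM in KO livers at 4 weeks. At 8 weeks the WT livers had 49.0, 59.8, 55.6 and 66.2 CPM, and the KO livers ran from 28.6 over 47.2 to 103.6 CPM, highest in library 1. At 20 months it stayed within 36.1 to 42.9 CPM in WT and 32.3 to 45.8 CPM in KO livers. Unlike Per2, it was not low in KO libraries 1 and 2 at 8 weeks.

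Cry1, the cryptochrome that represses the activator pair, had 28.9, 19.8 and 14.6 CPM in WT and 41.7, 25.7 and 38.2 CPM in KO livers at 4 weeks. The 8-week WT livers had 8.43, 9.17, 11.1 and 13.8 CPM, and the KO livers ran from 7.91 over 14.7 to 34.3 CPM, with libraries 1 and 2 at 32.0 and 34.3 CPM. At 20 months it was 9.79, 8.21 and 8.55 CPM in WT and 6.72, 13.1 and 10.8 CPM in KO livers.

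**Figure D1:**
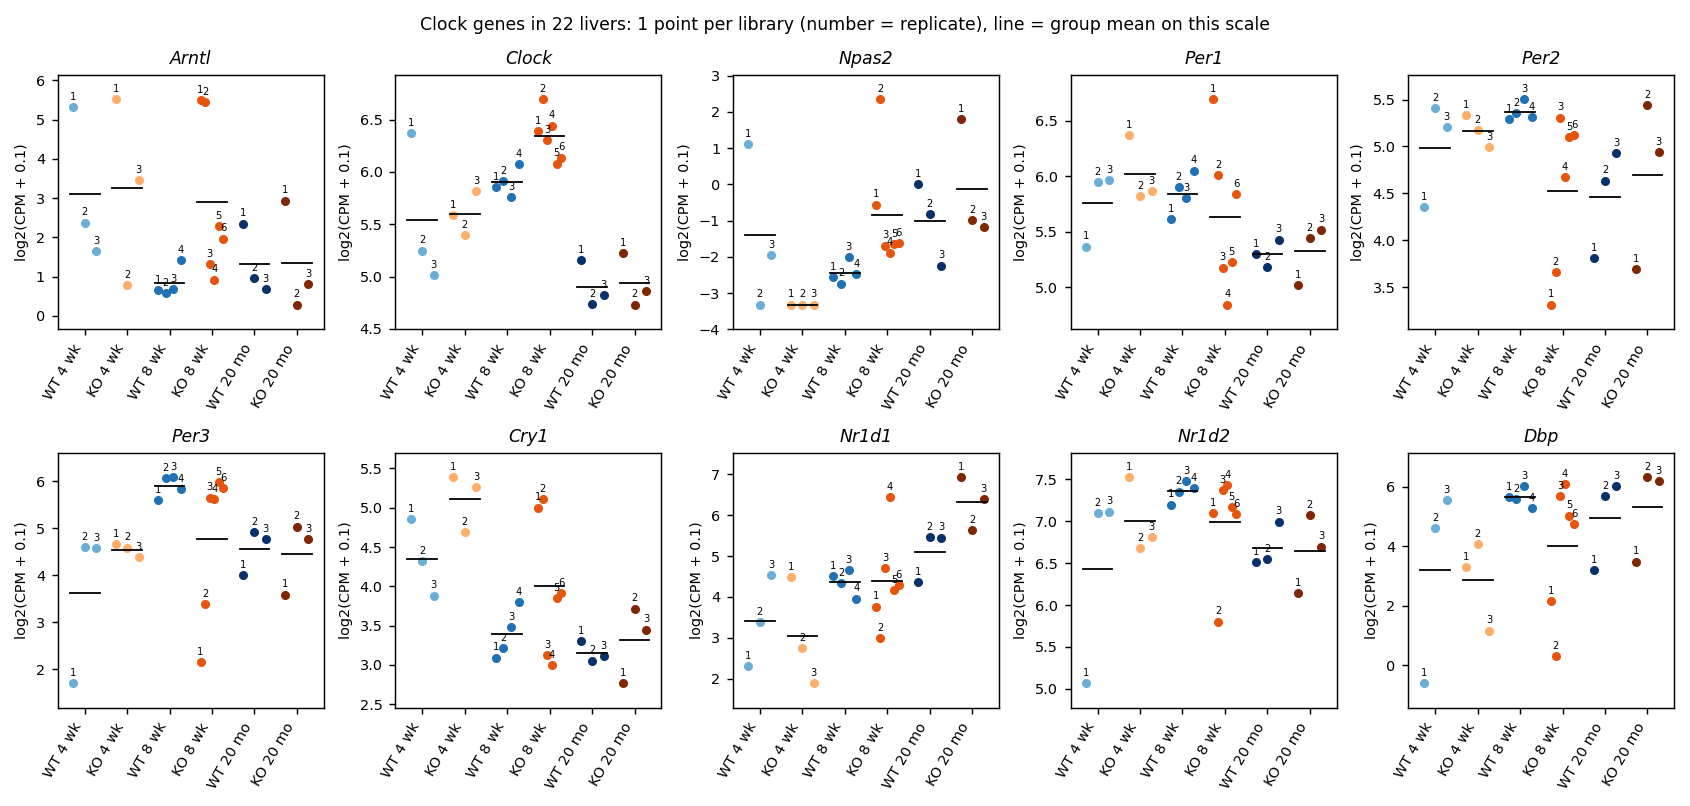
Levels of the 10 clock genes in each library on the log2(CPM + 0.1) scale, by group; points are libraries with their replicate number, and the line is the group mean on this scale. The 8-week WT livers sit close together for Arntl (1.39 to 2.58 CPM) and Dbp (38.8 to 64.9 CPM), while KO libraries 1 and 2 of that age stand at the other end for both genes.

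Per kilobase of exon, Nr1d2 was the most abundant member, with a median of 25.1 CPM per kb over the 22 libraries, followed by Dbp (11.9), Per1 (9.29), Nr1d1 (6.95) and Per2 (5.88). Clock and Cry1 followed at 4.03 and 4.02 CPM per kb, then Per3 at 2.82. Arntl (0.372) and Npas2 (0.0397) were lowest. Arntl ranged from 0.149 to 6.10 CPM per kb, so its highest library exceeded the median level of Per2. By group mean CPM, most neighbouring groups in a gene's order overlapped. Those that did not were, for Clock, KO at 20 months under KO at 4 weeks and WT under KO at 8 weeks, for Nr1d1, WT under KO at 20 months, and for Npas2, KO at 4 weeks (0 counts, at a depth where 3 counts are above the 8-week WT level) under WT at 8 weeks.

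To place each liver, the activator genes (Arntl, Clock, Npas2), the day genes (Nr1d1, Nr1d2, Dbp, Per3) and the late genes (Per1, Per2, Cry1) were each averaged as log2 CPM minus the gene's mean over the 22 libraries. The activator score minus the day score gives a position between the opposite arms of the loop and is not a clock hour. In 7 libraries the difference was above 0. They were WT library 1 (5.09), KO library 3 (1.42) and KO library 1 (0.60) at 4 weeks, KO libraries 2 (4.66) and 1 (2.94) at 8 weeks, and KO library 1 (1.24) and WT library 1 (0.94) at 20 months. The other 15 libraries lay between -0.36 and -1.74.

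At 8 weeks the 4 WT livers held one position, from -1.61 to -0.97 with an SD of 0.30. The 6 KO livers of that age spread from -1.60 to 4.66 with an SD of 2.48. KO libraries 3 and 4 lay at -0.91 and -1.60, next to the WT livers, and libraries 5 and 6 at -0.38 and -0.36. Several cell type marker sums set KO libraries 1, 2, 5 and 6 apart from 3 and 4. The positions of those 4 livers also lay above those of libraries 3 and 4, with libraries 1 and 2 much farther up (2.94 and 4.66). Cholangiocyte sums (27.7 to 41.0 CPM against 41.7 and 38.6) and erythroid sums (192.5 to 621.5 against 150.0 and 211.7) did not divide the livers this way. The 8 macrophage markers summed to 848.3, 815.5, 678.8 and 770.1 CPM in KO libraries 1, 2, 5 and 6, against 316.1 and 324.2 CPM in libraries 3 and 4 and 345.3 to 474.8 CPM in the WT livers. The 7 stellate cell markers summed to 632.4 to 748.9 CPM in those 4 livers, against 322.8 and 424.5 CPM in libraries 3 and 4 and 357.7 to 499.4 CPM in WT. The hepatocyte sums were 155900 to 198900 CPM, against 98320 and 87290 CPM and 91080 to 102700 CPM in WT. The part of these in the spread of clock positions was not tested. The 4-week livers had an SD of 3.35 in WT and 1.00 in KO, and the 20-month livers 1.40 and 1.66. Leaving Clock out of the activator score moved the 8-week WT livers to values from -2.16 to -1.39. In each of the 4 other scorings tried, ranks 1 to 3 stayed with the same 3 libraries.

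**Figure D2:**
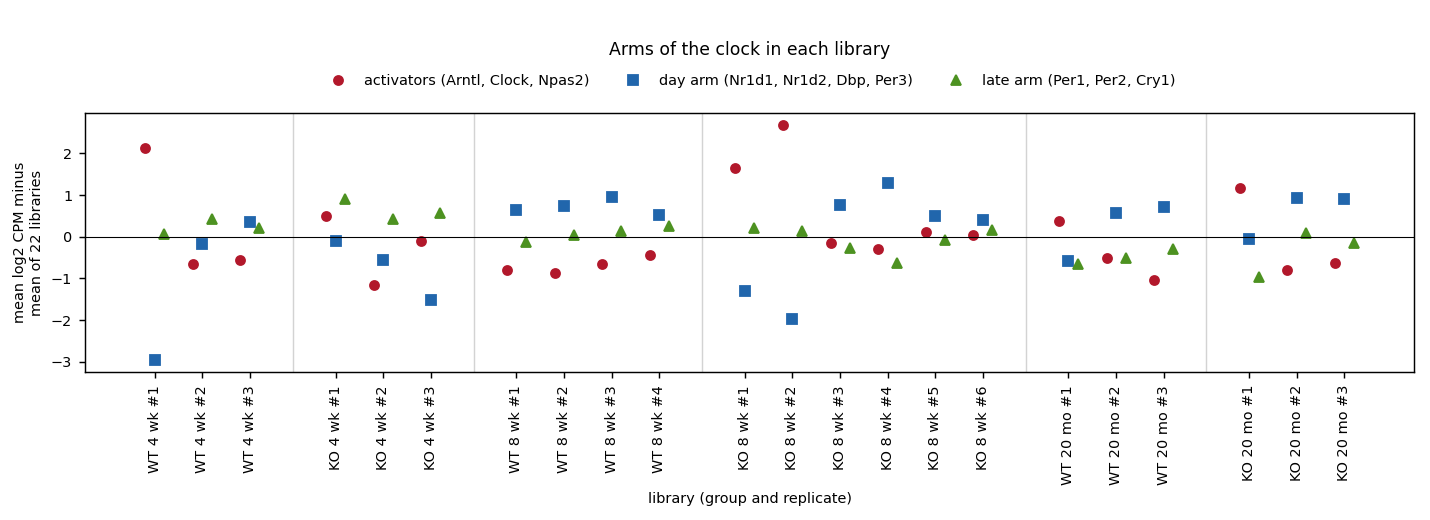
Mean log2 CPM of the activator, day and late genes in each library, each gene taken relative to its mean over 22 libraries. The activator score lies above the day score in 7 libraries, most in WT library 1 at 4 weeks (2.13 against -2.97) and KO library 2 at 8 weeks (2.69 against -1.97).

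The arms did not always move together. KO library 1 at 4 weeks had the highest Arntl of all livers (45.9 CPM) beside the highest Nr1d2 (183.4 CPM), and its late score of 0.91 was the highest of the 22. Ciart, a repressor of the activator pair that normally runs with the day genes, was high there too, at 75.8 CPM. KO library 1 at 20 months combined the highest Nr1d1 (120.9 CPM) with a low Dbp (11.1 CPM), a Ciart of 1.87 CPM and an Npas2 of 3.38 CPM. Reads that overlapped no counted gene feature were 9.65% in the first of these (6.13% to 7.87% in the other 4-week livers). They were 14.7% in the second (7.0% to 8.53% in the other 20-month livers). The first, KO library 1 at 4 weeks, also had the lowest hepatocyte marker sum of the 22. It was 61390 CPM, against 134900 to 193400 CPM in the other 4-week livers. The part of the reads without a counted feature and of this marker sum in these profiles was not tested. KO library 1 at 8 weeks had the highest Per1 (103.6 CPM), Cry2 (175.6 CPM), Nfil3 (153.4 CPM) and Rora (400.7 CPM). At 20 months, WT library 1, low in Dbp and Per3, was also the liver with the highest acute-phase and neutrophil sums, and the part of these in its clock profile was not tested. WT library 2, with the next highest sums, had a position of -1.06, between those of libraries 1 and 3.

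**Figure D3:**
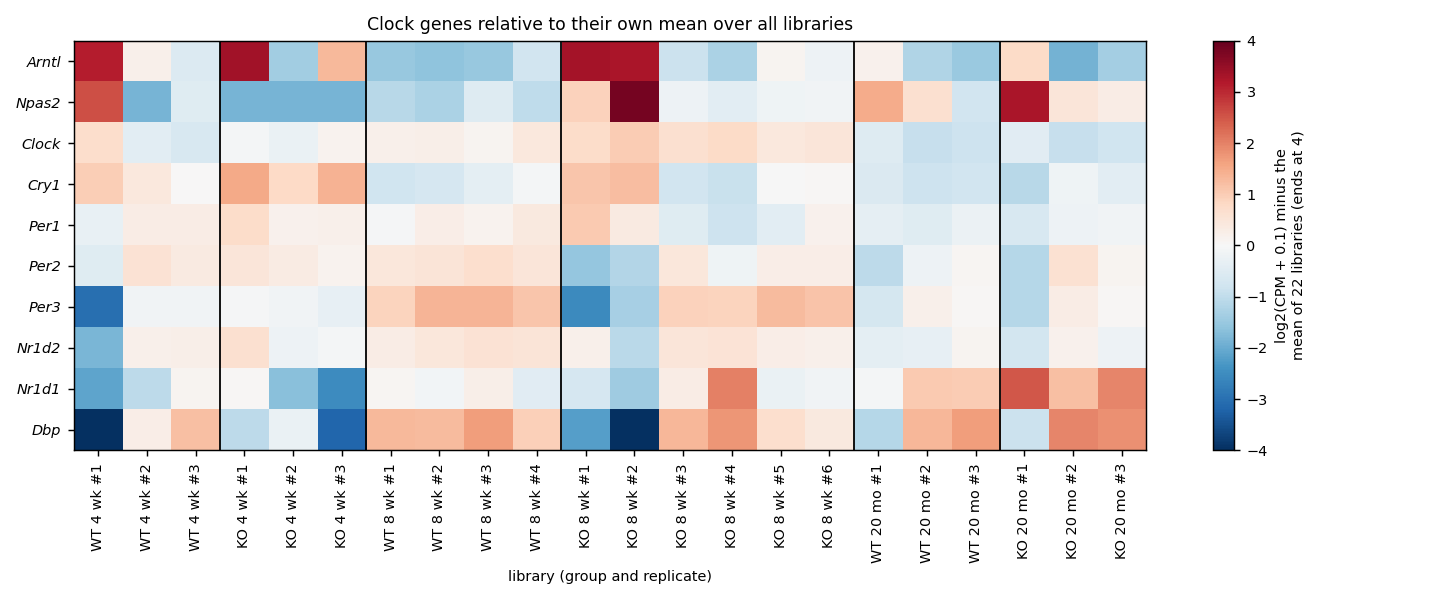
Heat map of log2(CPM + 0.1) of each clock gene minus its mean over the 22 libraries; columns are libraries, vertical lines part the groups and the colours end at 4 in either direction. WT library 1 at 4 weeks and KO library 2 at 8 weeks are red for Arntl and Npas2 and blue for Per3, Nr1d1, Nr1d2 and Dbp.

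The comparison of KO with WT asks whether loss of NTCP goes with other levels of clock transcripts. In edgeR's quasi-likelihood test with Benjamini-Hochberg adjustment over all genes, 0 of 9 members tested passed at 4 weeks, where 10.8% of all genes did. At 8 weeks 0 of 9 passed (0.0275% of all genes), and at 20 months 0 of 10 (0.0% of all genes). DESeq2 called 0 members at each age as well. Slc10a1 itself passed in edgeR at 4 and 8 weeks (adjusted p = 0.0117 and 9.0e-05). At 20 months it did not (log2 fold change -1.49, SE 0.32, edgeR adjusted p = 0.821), so a member that fails there may still differ. Unadjusted p-values under 0.05 were found for 1 member (Cry1), 2 members (Clock and Arntl) and 1 member (Nr1d1). The median log2 fold change of the members was 0.30, -0.05 and 0.25 at the 3 ages, beside 0.01, 0.02 and -0.0033 for all genes tested. Npas2 had too few counts to be tested at 4 and 8 weeks.

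At 4 weeks Cry1 had the smallest p of the members, with 21.1 ± 7.19 CPM in WT and 35.2 ± 8.37 CPM in KO livers (SD, n = 3 each). The log2 fold change was 0.77 (SE 0.29, edgeR adjusted p = 0.123), and the ranges overlapped. Dbp was 23.8 ± 23.0 CPM in WT and 9.52 ± 7.28 CPM in KO, with a log2 fold change of -1.27 and an SE of 1.01 (edgeR adjusted p = 0.442). For Arntl the log2 fold change was 0.33 with an SE of 1.09, since 1 liver of each genotype was above 40 CPM. No member had groups without overlap at this age, against 35.5% of all genes. Tested without the low-count filter, Npas2 (edgeR adjusted p = 0.0449), Cry1 (0.0409) and Dbp (0.0341) passed. The Npas2 call came from 11, 0 and 1 counts in WT and 0 in each KO liver, so it rests on WT library 1. With library 1 of both groups left out, an alternative chosen after seeing the data, Cry1 (log2 fold change 0.95, edgeR adjusted p = 0.0259) and Nr1d1 (-1.63, adjusted p = 0.0256) passed. The share of all genes that passed in these 2 runs is not given here.

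At 8 weeks Clock stood at 59.8 ± 5.62 CPM in the 4 WT livers and at 81.8 ± 12.99 CPM in the 6 KO livers (SD). Its log2 fold change was 0.47 (SE 0.13, edgeR adjusted p = 0.474). It was the only member without overlap, against 2.25% of all genes. Arntl had the largest difference, with 1.73 ± 0.564 CPM in WT and 16.9 ± 21.3 CPM in KO livers. Its log2 fold change was 3.31 (SE 1.09, edgeR adjusted p = 0.474). With KO libraries 1 and 2 left out, also chosen after seeing the data, the log2 fold change of Arntl was 0.90 (edgeR adjusted p = 0.672) and that of Clock 0.35 (adjusted p = 0.523). Cry1 (0.85) and Per2 (-0.64) came next in p, with edgeR adjusted p-values of 0.496 and 0.505. Without those 2 livers their log2 fold changes were 0.14 and -0.29.

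At 20 months the 3 WT livers had 36.1 ± 13.6 CPM of Nr1d1 and the 3 KO livers 84.9 ± 35.6 CPM (SD). Its log2 fold change was 1.25 (SE 0.41, edgeR adjusted p = 0.821). It was the only member whose groups did not overlap, which 10.2% of all genes showed. Without library 1 of both groups its log2 fold change was 0.59 (edgeR adjusted p = 0.964). The other REV-ERB gene, Nr1d2, had a log2 fold change of -0.02 (SE 0.27). Npas2 had the largest estimate (1.44, SE 1.05), which became -0.46 without KO library 1.

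**Figure D4:**
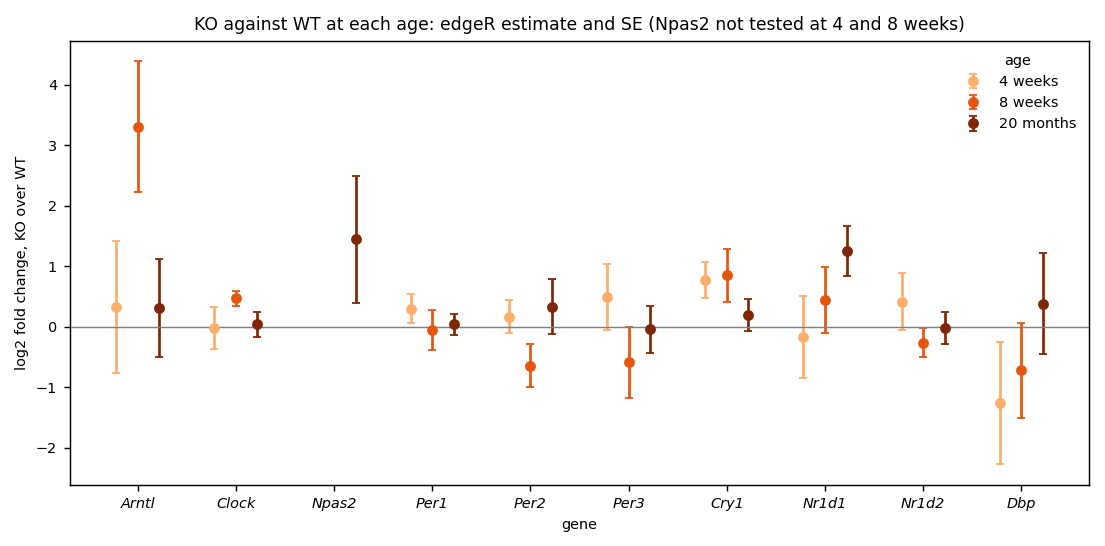
Log2 fold change of KO over WT for each clock gene at each age, as the edgeR estimate with its SE; no member passed the adjusted threshold at any age. Arntl at 8 weeks (3.31) lies farthest from 0 and has one of the widest SEs (1.09).

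Whether the KO difference changed with age was tested in 1 fit of all 22 libraries. None of the 10 members passed (1.62% of all genes did). The smallest edgeR adjusted p was 0.220, for Npas2, which was also the only member with an unadjusted p under 0.05 and which DESeq2 called (adjusted p = 0.0304). Npas2 had 0 counts in the 4-week KO livers.

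Members passed in each of the 4 comparisons between ages. From 4 to 8 weeks in WT livers, 3 of 9 members passed in edgeR, against 53.2% of all genes. Arntl was lower at 8 weeks (log2 fold change -3.21, SE 0.74, edgeR adjusted p = 0.00452), from 16.1 ± 20.8 CPM (n = 3) to 1.73 ± 0.564 CPM (n = 4). Without WT library 1 at 4 weeks its log2 fold change was -1.22 (edgeR adjusted p = 0.0161). Cry1 was also lower (-1.01, SE 0.24, edgeR adjusted p = 0.00489), and Per3 was higher (1.78, SE 0.43, adjusted p = 0.00549). Without WT library 1 at 4 weeks, Clock (0.77, edgeR adjusted p = 5.0e-04) and Nr1d2 (0.25, adjusted p = 0.0385) passed as well. Without WT library 3 at 4 weeks, Nr1d1 (1.42, edgeR adjusted p = 0.00556) and Dbp (1.98, adjusted p = 0.0474) did. With the replicate block Nr1d1 also passed (0.95, edgeR adjusted p = 0.0427). Npas2, not tested in the edgeR fit reported, was called lower at 8 weeks in DESeq2 (-3.10, DESeq2 adjusted p = 0.0255). It was also called lower without the low-count filter (-2.90, edgeR adjusted p = 0.0253). Its WT counts at 4 weeks were 11, 0 and 1.

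In KO livers from 4 to 8 weeks, Clock alone passed, higher at 8 weeks (log2 fold change 0.65, SE 0.17, edgeR adjusted p = 0.0140), against 37.7% of all genes. That call was lost without KO library 2 at 4 weeks (adjusted p = 0.0548). Cry1, which passed in WT livers, had a log2 fold change of -0.996 here (SE 0.47, edgeR adjusted p = 0.116), and it passed without KO library 2 at 8 weeks (-1.27, adjusted p = 0.0455). Arntl had -0.29 with an SE of 1.2, and 1.36 without KO library 1 at 4 weeks (edgeR adjusted p = 0.523), so 1 liver set the sign.

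From 8 weeks to 20 months in WT livers, 5 of 9 members passed, all lower at 20 months, against 54.5% of all genes. They were Clock (log2 fold change -1.04, SE 0.14, edgeR adjusted p = 5.0e-04), Per3 (-1.34, adjusted p = 0.00175), Per1 (-0.59, adjusted p = 0.00465), Nr1d2 (-0.70, adjusted p = 0.00503) and Per2 (-0.89, adjusted p = 0.0147). Arntl, Cry1, Nr1d1 and Dbp did not pass, with log2 fold changes of 0.65, -0.31, 0.74 and -0.33. Without WT library 1 at 20 months, Nr1d1 passed (1.01, edgeR adjusted p = 0.00195), and Arntl (-0.11) and Dbp (0.14) turned sign. DESeq2 called 7 members, the added ones being Nr1d1 (0.74, DESeq2 adjusted p = 0.0455) and Npas2 (2.47, adjusted p = 0.0303), both higher at 20 months. The share of all genes that DESeq2 called here is not given, so this count has no background beside it. Npas2, which had too few counts for the edgeR fit reported, also passed without the low-count filter (2.43, edgeR adjusted p = 0.0218) and without WT library 3 at 20 months (2.89, adjusted p = 0.00253). Each of the 5 calls held in each alternative run, including those without WT library 1 or 2 at 20 months, the livers with high acute-phase sums. No run left out both of these livers, so the part of their acute-phase state in the calls was not tested. Reads that overlapped no counted gene feature were 15.4% to 17.8% in the 8-week WT livers and 7.0% to 8.53% in the 20-month WT livers. None of the runs addressed this difference, and its part in the calls was not tested.

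In KO livers from 8 weeks to 20 months only Clock passed (log2 fold change -1.41, SE 0.19, edgeR adjusted p = 2.5e-04), against 45.8% of all genes. Clock thus fell from 81.8 ± 12.99 CPM (n = 6) to 30.9 ± 5.69 CPM (n = 3). Nr1d1 was next, with a log2 fold change of 1.58 (SE 0.62, edgeR adjusted p = 0.0600). It passed without KO library 4 at 8 weeks, its highest liver of that group (2.31, edgeR adjusted p = 0.00118), in DESeq2 (1.55, adjusted p = 0.0295) and with the replicate block (2.49, adjusted p = 0.0152). Per3 and Per1 had -0.73 and -0.45 and did not pass. The comparisons of 8 weeks with 4 weeks and with 20 months share their 8-week livers, and those of KO with WT share livers with both.

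Within groups, the scatter of the members was large for the genes at the ends of the loop. The SD of log2 CPM within groups was 1.97 for Dbp, 1.69 for Arntl, 1.39 for Npas2 and 1.12 for Per3, which lie at the 99.6th, 99.3rd, 98.6th and 96.5th percentile of 15877 genes. Nr1d1 had 0.95, Per2 0.64, Cry1 0.59, Nr1d2 0.59 and Per1 0.43. Clock, at 0.32, lay under the median gene (0.40), at the 37.5th percentile, but at the 71.0th percentile of the 3269 genes of similar level. The median of the 10 members was 0.80. In the 8-week WT livers each member's SD was between 0.10 and 0.39, while in the 8-week KO livers it ran from 0.22 (Clock) to 2.27 (Dbp).

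Arntl and Dbp ran against each other from liver to liver. In 4 libraries Arntl stood apart, at 40.0 CPM or more, against at most 10.9 CPM in the other 18. This cut was set after seeing these values, and tests were run within the 18. With each gene centred on its group mean, Dbp had r = -0.96 and rho = -0.94 with Arntl there (permutation p = 2.4e-04 and 5.4e-04 with libraries shuffled within groups, adjusted over 9 genes 0.00216 and 0.00486). Without the 2 libraries farthest from the median of Arntl, r was -0.91. By age, over all livers, r was -0.68 at 4 weeks (n = 6), -0.96 at 8 weeks (n = 10) and -0.97 at 20 months (n = 6). None of the other 8 members passed in the 18 (adjusted permutation p of 0.110 or more).

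Over all 22 libraries, as a description, r with Arntl was -0.84 for Dbp, -0.80 for Per3, -0.75 for Per2 and -0.53 for Nr1d2. It was 0.73 for Cry1, 0.72 for Npas2 and 0.66 for Clock. Per1 had 0.46 and Nr1d1 -0.37. In the 18 libraries Cry1 had 0.21 and Per1 -0.02. With the 2 of these farthest from their median of Arntl also left out (n = 16), they had 0.72 and 0.40. Their values thus depended on which livers were included. Nr1d1 had -0.37 in the 18 too, and -0.69 when the 2 libraries farthest from the median of Arntl were left out of the 22. By age, Per1 had 0.87 at 8 weeks and -0.77 at 20 months, and Cry1 0.97 and -0.68. Whether r differed between the ages was not tested. The libraries share the scaling and, within an age, the depth.

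**Figure D5:**
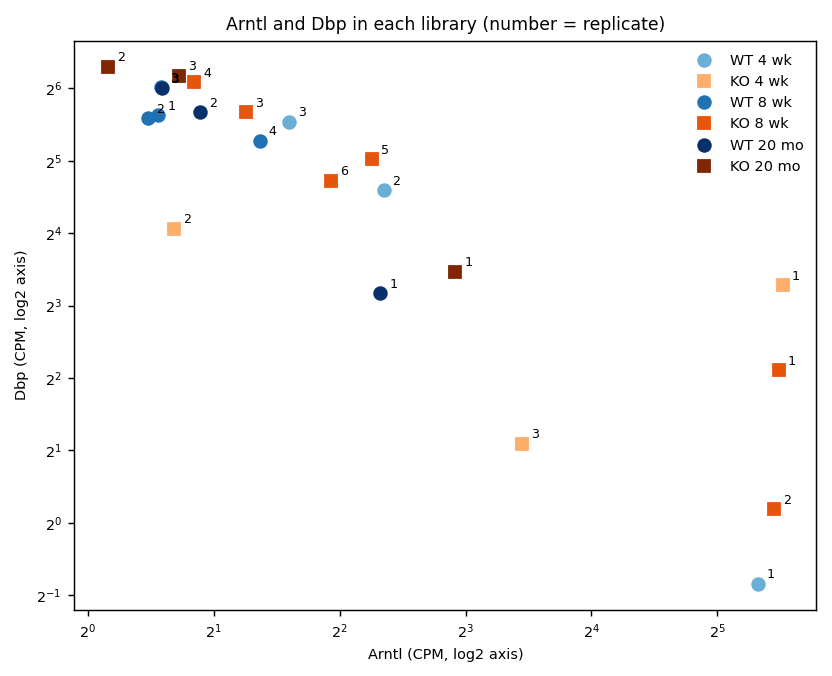
Arntl against Dbp in CPM, both axes on a log2 scale; points are libraries, circles WT and squares KO, with the replicate number. The 4 libraries at 40.0 CPM of Arntl or more lie at 9.74 CPM of Dbp or less, and the 4 WT livers of 8 weeks lie together at the upper left.

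The genes most like Arntl from liver to liver were sought among 10588 genes by the same group-centred r over 22 libraries. Chka, a choline kinase, had 0.96 and ran from 8.67 CPM to 108.7 CPM, with its highest levels in the 4 libraries with high Arntl. Pnrc1, a nuclear receptor coactivator, had 0.95. Rsrc2 (0.93), Clpx and Ptpn9 (0.90 each), and Srsf2, Ypel2 and Ddx42 (0.88 each) followed. In the 18 libraries without the highest Arntl, r of these 8 genes ran from 0.69 (Ptpn9) to 0.94 (Pnrc1). The genes here and below were picked by r over the 22 libraries, which include the 18. Their r in the 18 is therefore not an independent check.

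At the other end were Cuta (-0.92), Hspb11, Mcur1, Dio1, Zfp637, Pde4dip and Wipf3 (-0.91 each) and Epha1 (-0.90). In the 18 libraries theirs ran from -0.67 (Wipf3) to -0.89 (Epha1). Dio1, the deiodinase that activates thyroid hormone in liver, ran from 0.336 CPM in KO library 1 at 4 weeks to 177.3 CPM in WT library 3 of that age. Most like Per2 were Wee1, Clmn and Trim37 (0.91 each), Prrc1 (0.90), and Mief2 and Marveld1 (0.89 each), with 0.73 (Mief2) to 0.91 (Trim37) in the 18. Wee1, a kinase that holds back entry into mitosis, was one of 20 genes fixed as clock outputs here, and ran from 0.434 CPM in KO library 1 at 20 months to 20.0 CPM in WT library 3 at 8 weeks.

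Other genes of the loop were described from lists. Among further loop genes at 4 weeks, Cipc, which inhibits CLOCK, fell by 1.05 on the log2 scale in KO livers (SE 0.19, edgeR adjusted p = 0.0153). Ciart, Tef and Cry2 did not pass, with log2 fold changes of 0.00, 0.03 and 0.61. Of 26 modifiers of clock proteins, 2 were higher and 24 did not pass, a smaller share than the 10.8% of all genes called at that age. The 2 were Ppargc1a, a coactivator of ROR receptors (1.60, SE 0.20, edgeR adjusted p = 0.00367), and Sfpq, a PER-associated RNA-binding protein (1.00, adjusted p = 0.0130).

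Of 20 output genes at 4 weeks, 1 was lower, Cys1 (-2.0, SE 0.40, edgeR adjusted p = 0.0196), and 19 did not pass, which is again under the 10.8% of all genes. Of 11 genes that carry systemic cues such as temperature and glucocorticoids, 5 were lower and 6 did not pass, against 10.8% of all genes called. Hspa1b (-4.33), Hsph1 (-2.97) and Dnajb1 (-1.57) encode heat-shock chaperones, with edgeR adjusted p-values of 0.0124, 0.00365 and 0.0117. Tsc22d3, a glucocorticoid target, had -1.5 (edgeR adjusted p = 0.0130). Other glucocorticoid-responsive genes of the list, named after their values were seen, did not pass. They were Fkbp5 (-0.05), Sgk1 (0.77), Tat (1.19), Mt1 (1.31) and Mt2 (1.40), with edgeR adjusted p-values of 0.0816 or more. The median log2 fold change of the cue list was -0.62, beside 0.01 for all genes. At 8 weeks and 20 months 0 genes of these 4 lists passed in edgeR.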

How the data were processed

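Each liver has 1 deposited table of raw counts by Ensembl gene. The submitters' processing notes name HISAT2 2.0.4, HTSeq 0.6.1p1 and the build GRCm38. Which annotation and strand setting were used is not given in the sources used here. Lines that name no gene were left out, and reads that overlapped no counted gene feature were 6.1% to 17.8% of the reads recorded. Symbols came from GENCODE M21 for 47310 of 47729 gene lines. In R 4.3.3, edgeR 4.0.16 (filterByExpr, TMM) was fitted on all genes of the groups compared, with the 2-sided quasi-likelihood F-test and calls at a Benjamini-Hochberg adjusted p under 0.05. The test was checked on simulated data. DESeq2 1.42.0, RLE scaling, no low-count filter, a replicate block, a fit of all 22 libraries and leaving out single libraries were alternatives. Log2 CPM used a prior count of 2. Correlations used group-centred values and 100000 permutations within groups. Sequences are from RefSeq (GRCm38.p6).

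The members and gene lists were chosen with earlier results of these data known. All members are named, and per list and KO comparison the 4 called genes with the smallest adjusted p. One result of these lists is not reported here. Genes alike are the 8 highest and 8 lowest r with Arntl and the 6 highest with Per2, at a mean log2 CPM of at least 1. Nothing in the labels ties livers to litters or cages, so p-values measure the spread between these samples. No 2 libraries of a group agreed within sampling noise (smallest chi-square per degree of freedom 8.34). The labels do not say whether shared replicate numbers pair the livers.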

Additional observations from a re-analysis of the deposited data

Results flagged for a closer look

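Single livers far from the rest of their group were looked for in the groups of 4 and of 6, 20 checks over the 10 genes, with Dixon's 95% limit, which chance passes in about 1 of 20 groups. There were 3 such values. Arntl was 2.575 CPM in WT library 4 at 8 weeks, against 1.39 to 1.49 CPM in the other 3 WT livers. Npas2 was 4.991 CPM in KO library 2 at 8 weeks, and the next KO liver had 0.578 CPM. Nr1d2 was 55.66 CPM in the same KO library 2, against 135.6 to 172.6 CPM in the other 5 KO livers. Both of the KO values belong to a liver in which Arntl was 43.7 CPM and Dbp 1.14 CPM.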

How the results depend on the processing

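The number of members called in KO against WT stayed at 0 at 8 weeks and 20 months in each alternative run. At 4 weeks it was 3 without the low-count filter and 2 without library 1 of both groups, where Clock (0.55), Per1 (-0.05), Per2 (-0.16), Per3 (-0.04) and Nr1d2 (-0.30) also changed sign. The same omission at 20 months changed the sign of Arntl (-0.29), Clock (0.00), Per3 (0.03) and Nr1d2 (0.09). These omissions were chosen after seeing the data. Leaving out 1 library at a time gave ranges of log2 fold changes that crossed 0. At 4 weeks they were -1.33 to 2.32 for Arntl, -0.27 to 0.52 for Clock, -0.09 to 0.37 for Per2, -1.26 to 0.57 for Nr1d1 and -0.01 to 0.69 for Nr1d2. At 8 weeks they were -0.33 to 0.08 for Per1 and -0.27 to 0.62 for Nr1d1. At 20 months they were -1.02 to 1.05 for Arntl, -0.13 to 0.18 for Clock, -0.46 to 1.92 for Npas2, -0.05 to 0.17 for Per1 and -0.08 to 0.68 for Per2. For Per3, Cry1, Nr1d2 and Dbp they were -0.32 to 0.28, -0.01 to 0.42, -0.25 to 0.18 and -0.10 to 0.86.

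Of the age comparisons, WT 8 weeks against 4 weeks called 3 to 5 members without 1 library. KO 8 weeks against 4 weeks called 0 to 2, WT 20 months against 8 weeks 5 to 6 and 7 in DESeq2, and KO 20 months against 8 weeks 1 to 2 and 2 in DESeq2 (Clock and Nr1d1). The shares of all genes called in these runs are not given here. Ranges crossed 0 for Clock (-0.04 to 0.77) and Per1 (-0.11 to 0.14) in WT and for Arntl (-0.86 to 1.36) and Nr1d2 (-0.21 to 0.24) in KO from 4 to 8 weeks. From 8 weeks to 20 months they did for Arntl (-0.11 to 0.92) and Dbp (-0.86 to 0.14) in WT and for Npas2 (-1.53 to 0.83) and Per2 (-0.25 to 0.50) in KO. The joint test of ages called 1 member in DESeq2. At 20 months alone r of Cry1 with Arntl was -0.68. The cause of these changes was not tested. Over all genes, counts of calls at 4 weeks ranged from 184 to 2652 (1200 in the fit reported). They were 109 in DESeq2 against 4 at 8 weeks, and 53 in DESeq2 and 71 without WT library 3 against 0 at 20 months.

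With the replicate number as a block, the KO comparisons called 0 members. The KO comparison of 8 with 4 weeks then called 0 members in place of 1, that of 20 months with 8 weeks 2 in place of 1, and Clock at 4 weeks had 0.09. The labels do not say what the numbers stand for, and deviations of same-numbered livers correlated between -0.28 and 0.40. At 20 months these correlations were 0.40, 0.07 and 0.39, against -0.44 to 0.24 for livers with different numbers. Whether the numbers pair livers was not tested. Over all genes the block gave 537 calls at 4 weeks, 0 at 8 weeks, 1800 for KO 8 against 4 weeks and 3682 for KO 20 months against 8 weeks (5594 and 6875 without it). At 4 weeks the depth limits Npas2, whose counts were 0 to 11.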
